A study of Mus musculus with 2 samples.

Results

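Fibro-adipogenic progenitors (FAPs) that carried at least 2 of the 5 transcripts Inmt, Gdf10, C7, Abca8a and Penk, here called Inmt+ Gdf10+ parenchymal FAPs, were examined in single-cell RNA-seq libraries of dystrophic mouse hind limb muscle. They numbered 714 of 7664 cells, 335 in the Ctrl library and 379 in the dKO library. The rule first gated FAPs as cells with 500 or more genes, at least 1 Pdgfra UMI and 5 Dcn UMIs, no UMI of Ptprc, Cdh5 or Pecam1, at most 1 UMI in all of the tenocyte genes Tnmd, Kera and Chad, and fewer than 3 of 6 cell cycle genes. It then set aside Pi16+ Dpp4+ cells (5 or more Pi16 UMIs with Dpp4), Cxcl5+ cells (3 or more UMIs) and Vit+ stromal cells (4 or more of 6 genes). The members were 714 of 1694 gated cells, and the 980 others are called the other gate cells. Of these, 17 met more than 1 of the exclusions, 1 in Ctrl and 16 in dKO, and they held 0.399% and 5.08% of the UMIs of the other gate cells. A margin here is the log2 ratio of dKO to Ctrl in members minus that in the other gate cells. Without the 17 cells the margins given below for the interferon list (0.28), Ptx3, Tnfaip6, Il6, Sfrp2 and Hgf stayed above 0, and the interval for Sfrp1 still held 0. Of 26 list margins 2 had intervals that lay above 0 and then held 0, those of fibrillar collagen and lipid handling. Of the margins of 289 named or listed genes 13 changed whether their interval lay above, across or below 0.

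Both libraries came from mdx mice, which lack dystrophin, and each was made from the pooled muscle cells of 3 mice. Ctrl mice were Pax7 CreERT2/R26YFP; Yy1+/+; mdx and dKO mice were Pax7 CreERT2/R26YFP; Yy1 f/f; mdx, and both received tamoxifen on 5 consecutive days at 1.5 months of age, with muscles taken 1 month later. Cre is driven by Pax7, so the deletion is aimed at muscle stem cells and not at FAPs. The comparison asks what parenchymal FAPs look like in muscle whose stem cells have lost the transcription factor YY1.

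FAPs are the resident Pdgfra+ mesenchymal cells of skeletal muscle. They lay down the interstitial matrix, supply trophic factors to muscle stem cells during repair, and are the main source of scar and fat in dystrophic muscle. Pi16+ Dpp4+ FAPs are generally placed in the fascial and perivascular adventitia, whereas FAPs expressing Gdf10, Penk, Inmt or C7 are described as populations lying between the fibres. Position was not measured here, so "parenchymal" is a label and not a result.

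The Ctrl library held 45556596 UMIs in 4527 cells and the dKO library 33815155 in 3483, and 192 and 154 cells fell under 500 genes. Members had a median of 10571 UMIs in Ctrl (1135 to 33157) and 11379 in dKO (1027 to 49961), beside 12927 and 12451 in gated cells with 0 or 1 of the 5 genes, so members were not sequenced more deeply than those cells. The libraries shared 7 barcodes, and no barcode was a member in both. Levels below are in CPM, the UMIs of a gene per 1000000 UMIs of the summed members of a library. Each ratio has a 95% interval for counting error only, and with 1 library per genotype no difference has a replicate check or a p-value. The targeted gene, Yy1, was read first in muscle stem cells. These were cells with 500 or more genes, no UMI of Ptprc, Cdh5, Pecam1 or Pdgfra, and at least 2 of Pax7, Myf5, Cdh15 and Chodl. The 87 Ctrl stem cells yielded 288 Yy1 UMIs, or 172 CPM with an interval of 153 to 193. The 20 dKO stem cells yielded 3, all from a single cell, or 6.14 CPM with an interval of 1.27 to 17.9, a ratio of 0.0357 (0.00731 to 0.105). With at least 3 of the 4 genes the levels were 161 CPM in 47 Ctrl cells and 18 CPM in 10 dKO cells, a ratio of 0.112, and without the highest doublet scores the ratio was 0.0565. Members kept Yy1, with 500 UMIs (123 CPM, 113 to 135) in the Ctrl library beside 579 (122 CPM, 112 to 132) for dKO.

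The name fits only part of the cells that the rule collects. Inmt, a methyltransferase of small amines, was detected in 47.5% of Ctrl and 43.0% of dKO members, and Gdf10, a ligand of the BMP family also known as BMP3B, in 31.9% and 41.7%. Both together were seen in 44 Ctrl members (13.1%) and 57 dKO members (15%). Abca8a, a lipid transporter, was near universal at 97.0% and 93.7%. Penk, the precursor of the enkephalin peptides, was present in 61.5% and 65.7%, and C7, a terminal complement component, in 30.1% and 39.1%. These detections chose the cells and are given only as a description. In GRCm38 (GENCODE M21) Inmt lies at chr6:55170626-55175043, Gdf10 at chr14:33923587-33937983 and C7 at chr15:4988762-5063740. At an equal depth of 2000 UMIs per cell Inmt was found in 20.9% and 20.5% of members and in 0.526% and 0.315% of blood cells (Ptprc+), and Gdf10 in 10.6% and 16.3% of members and 0.409% and 0.0787% of blood cells. All 5 genes were found in 10 Ctrl and 23 dKO members, 4 in 47 and 53, 3 in 104 and 140, and exactly 2 in 174 and 163. Just outside the threshold lay 244 Ctrl and 170 dKO cells with a single one of the genes.

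The marker genes Sfrp1, Eln and Podn, which the rule did not use, had higher levels in members than in each of the other 4 kinds of gate cell in the same library. These genes were picked as markers with earlier results of these data known, so their levels are a description and not a check on the rule. Sfrp1, a secreted inhibitor of Wnt signalling, stood at 363 CPM in Ctrl and 581 CPM in dKO members, against 150 and 252 CPM in gated cells with 0 or 1 of the 5 genes and 137 and 162 CPM in Pi16+ Dpp4+ cells. Eln, which encodes tropoelastin, stood at 995 and 1077 CPM, with 713 and 860 CPM in Pi16+ Dpp4+ cells and 76.9 and 350 CPM in Cxcl5+ cells. Podn, a small leucine-rich proteoglycan, was at 250 and 199 CPM, with 171 and 131 CPM in gated cells with 0 or 1 of the 5 genes. At the threshold, Sfrp1 went from 163 CPM in Ctrl cells with 1 gene to 288 CPM in those with exactly 2, and from 281 to 485 CPM in dKO cells. Eln went from 511 to 901 CPM in Ctrl but stood at 624 and 622 CPM in dKO, where the 163 members with exactly 2 genes were below Pi16+ Dpp4+ cells. The dKO members with 3 or more genes had 1264 to 2769 CPM. The FAP genes Dcn (12782 and 12534 CPM) and Pdgfra (478 and 397 CPM) are part of the gate and were present throughout.

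**Figure D1:**
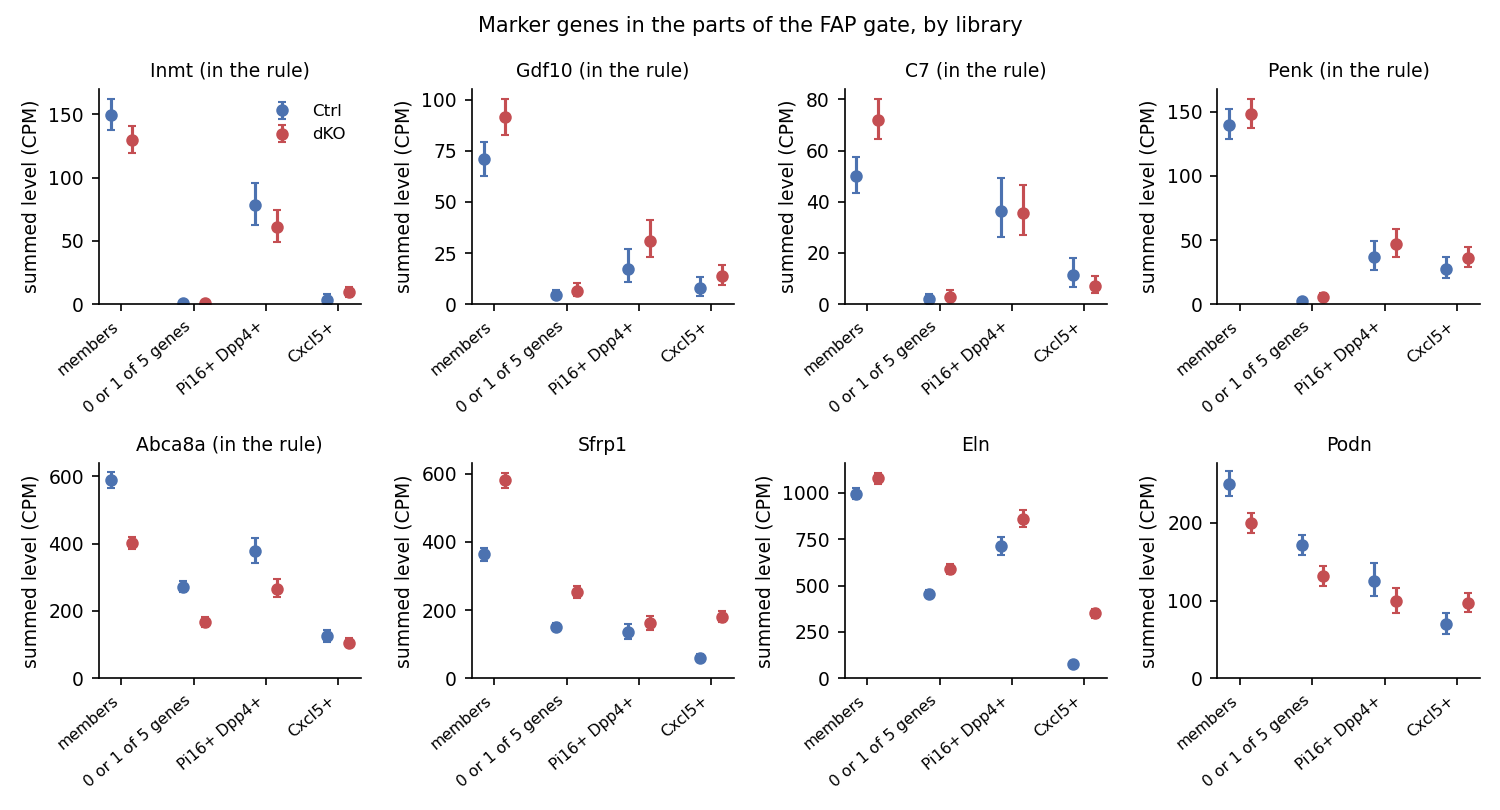
Summed level in CPM of 8 marker genes in members, in gated cells with 0 or 1 of the 5 rule genes, in Pi16+ Dpp4+ cells and in Cxcl5+ cells, with 95% counting intervals, for Ctrl (blue) and dKO (red). Sfrp1, Eln and Podn, which the rule did not use, are highest in members in both libraries, for example Sfrp1 at 363 and 581 CPM. They were picked as markers with earlier results of these data known.

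Beyond the markers, members differed from the other gate cells by a set of secreted and metabolic genes, listed here as a description since the same cells were chosen by their transcripts. Igfbp3, which binds insulin-like growth factors, was 3.22 times as high in Ctrl and 4.46 times in dKO. Lpl, the lipase that frees fatty acids from lipoproteins, was 2.28 and 2.33 times as high. Apod, a lipid-binding lipocalin, was 2.31 and 2.41 times as high, and Hsd11b1, which regenerates active glucocorticoid, 2.26 and 2.30 times. Tsc22d3, a glucocorticoid-induced gene also called GILZ, was 2.29 and 2.37 times as high. The 29 Vit+ cells were an exception, with more Apod (6420 and 4298 CPM against 1893 and 2475 CPM in members), more Tsc22d3 (286 and 275 CPM against 217 and 205 CPM) and, in Ctrl, more Igfbp3 (139 against 78.5 CPM). At the other end stood Tnc, the injury matrix protein tenascin-C, at 0.308 and 0.349 times the level in other gate cells, although Pi16+ Dpp4+ cells held still less (2.60 and 14.9 CPM against 102 and 111 CPM in members). Cxcl5, Dpp4 and Pi16, which define the cells set aside, were low as well.

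The members were not uniform among themselves. Of the Ctrl members, 81 had Inmt without Gdf10 or C7, 95 had Gdf10 or C7 without Inmt, 78 had both and 81 neither, and the dKO library had 69, 145, 94 and 71. Cells with Gdf10 or C7 alone thus made up 28.4% of Ctrl and 38.3% of dKO members, and cells with Inmt alone 24.2% and 18.2%. The 2 exclusive kinds were compared over 4112 genes, and the 24 genes shown were chosen by the smaller of their differences in the libraries, so that a like direction in both follows from the choice. Median depth was lower in cells with Inmt alone, 9295 against 12198 UMIs in Ctrl and 9968 against 12709 in dKO.

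Cells with Inmt alone carried more of the glucocorticoid enzyme Hsd11b1, at 145 against 27.0 CPM in Ctrl and 180 against 27.7 CPM in dKO, ratios of 5.39 (3.68 to 8.07) and 6.49 (4.71 to 9.03). Bmp2, a BMP ligand, had ratios of 3.27 and 3.35, and Bmp4, another, 2.75 and 3.44. Ramp1, the co-receptor for the neuropeptide CGRP, was 3.24 and 3.35 times as high, Mme, the peptidase neprilysin, 2.45 and 2.68 times, and Htra3, a secreted serine protease, 2.53 and 2.63 times. Cells with Gdf10 or C7 alone had more Timp1, the tissue inhibitor of metalloproteinases, at 884 against 180 CPM in Ctrl and 1569 against 343 CPM in dKO. They also had more Igfbp5, S100a4, the actin-binding Actn1 and Csrp2, the adhesion molecule Cdh11, and Cthrc1, a secreted protein of activated fibroblasts, whose ratios of Inmt cells to Gdf10 or C7 cells ran from 0.214 for Igfbp5 to 0.517 for Cthrc1 in Ctrl.

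**Figure D2:**
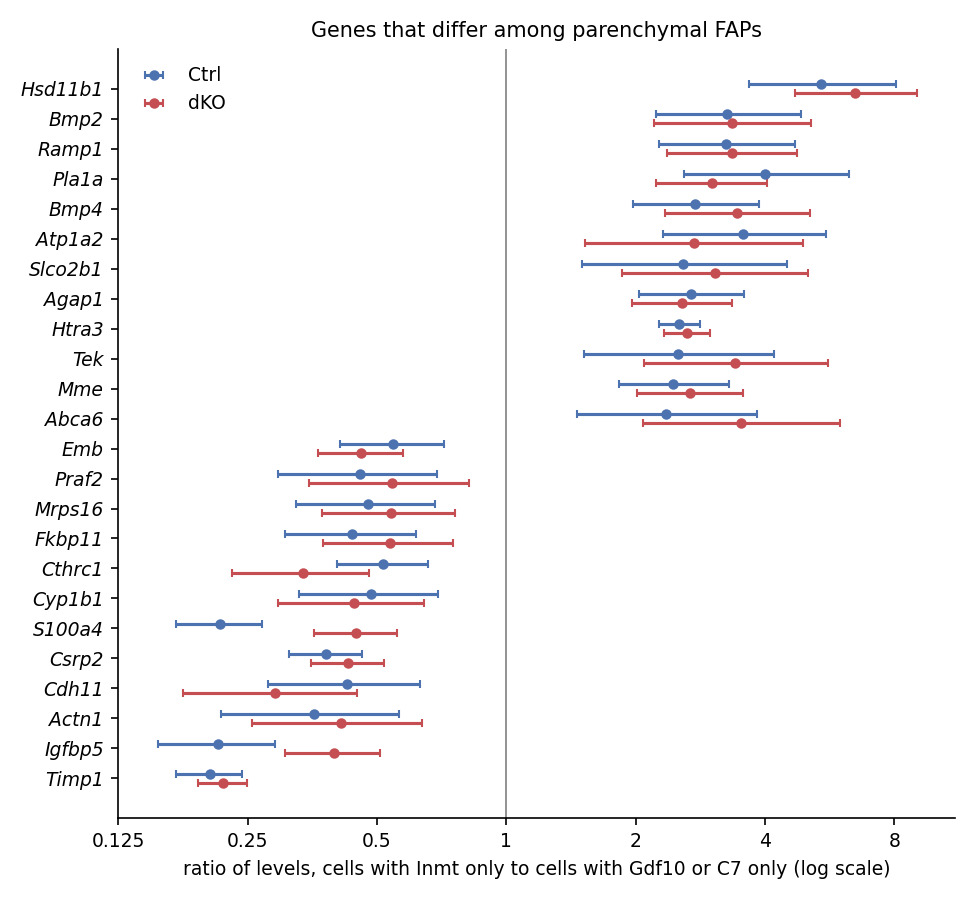
Ratio of levels between members with Inmt only and members with Gdf10 or C7 only (log scale, 95% counting intervals) for the 12 highest and 12 lowest genes, in Ctrl (blue) and dKO (red). Hsd11b1 heads the plot at 5.39 and 6.49, and Timp1 closes it at 0.204 and 0.219, and genes were chosen for a difference in both libraries.

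Members made up 41.1% of gated cells in Ctrl (335 of 816, 37.7 to 44.5) and 43.2% in dKO (379 of 878, 39.9 to 46.5), a difference of 2.11 percentage points whose interval of -2.59 to 6.80 holds 0. Of all cells they were 7.73% (6.95 to 8.56) and 11.4% (10.3 to 12.5), a difference of 3.66 points (2.33 to 5.01), while the gate as a whole went from 18.8% to 26.4% of cells. The direction of the share within the gate depended on how the rule was applied. With at least 1 of the 5 genes the difference was -8.43 points, and with at least 3 it was 4.87 points. Once cells were thinned to 2000 UMIs the rule took 22.5% of the Ctrl gate and 20% of the dKO gate, and the difference of -2.46 points had an interval (-7.76 to 2.91) that holds 0. Among the 5 genes over all gated cells, Gdf10 had a dKO to Ctrl ratio of 1.47 and C7 1.47, whereas Abca8a had 0.666 and Inmt 0.981. Shares of cells that a viability sort and dissociation leave behind need not be the shares in the tissue.

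Between the genotypes 7370 genes with 100 or more UMIs over both libraries were compared in members. A gene was counted as higher or lower when its ratio of dKO to Ctrl reached 1.5-fold and its counting interval left out 1. By that measure 263 genes were higher in dKO (3.57 percent of the genes compared) and 279 lower (3.79 percent), 7.35 percent in either direction, with a median log2 ratio of -0.07 over all genes and quartiles of -0.25 and 0.11. When levels were scaled by the median ratio of genes in place of total UMIs, the counts were 326 higher and 187 lower. Of the 12 highest ratios among genes seen in 10% or more of members, 8 belonged to the type I interferon list. Of the 26 gene lists, the summed UMIs of 4 passed the same measure, all higher in dKO, namely the type I interferon, interferon gamma, MHC class I and activated lists. The interferon gamma list fell short of it under several alternatives, given with its genes. The activated list holds Cxcl5, by which the rule set cells aside, so its sum is a description. In all gated cells with 2 or more of the 5 genes, with none set aside, its ratio was 1.43 (1.41 to 1.45), short of the fold.

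Genes of the type I interferon response had the highest dKO to Ctrl ratio of the 26 lists. Of 25 such genes with enough UMIs, 24 were higher in dKO members, 0 were lower, and the median log2 ratio was 1.60. Their summed level went from 1060 to 3246 CPM, a ratio of 3.06 (2.96 to 3.17). Ifi27l2a, which encodes a small interferon-induced protein, carried the most UMIs, at 395 CPM in Ctrl and 1380 CPM in dKO. It was detected in 68.7% of Ctrl and 97.4% of dKO members. Bst2, or tetherin, which holds budding virions at the cell surface, went from 218 to 495 CPM. Isg15, a ubiquitin-like protein attached to other proteins in antiviral defence, went from 46.4 to 226 CPM, 4.86-fold (4.16 to 5.70). Irf7, the transcription factor that amplifies interferon production, went from 21 to 105 CPM, a log2 ratio of 2.32. Rsad2, or viperin, was at 9.14 and 55.0 CPM, and Ifit1, which binds foreign RNA caps, at 14.1 and 76.3 CPM. Usp18, the protease that removes ISG15 and damps receptor signalling, was at 8.15 and 29.7 CPM. The sensor Ddx58 did not reach the fold, at 32.8 and 39.2 CPM. Transcripts of Ifit3 and Ifit3b are near-identical copies, and how reads were divided between them is uncertain.

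Promoters of interferon-stimulated genes often carry a sequence that interferon-activated factors read. The interferon-stimulated response element holds the letters GAAA, any 2 bases, and GAAA again, which were searched on both strands from 250 bases before to 50 after each RefSeq start site (GRCm38.p6). Of the 12 highest ratios in members, 9 genes had a window and 5 of these held the letters (55.6%). Windows of 4 of these 5 genes, shown because they match, are printed 5′ to 3′ along the gene's own strand, with each match in capitals. A match on the other strand reads TTTC, any 2 bases, TTTC. Overlapping matches in Isg15 run together.
Ifit1, chr19:34640760-34640838, plus strand: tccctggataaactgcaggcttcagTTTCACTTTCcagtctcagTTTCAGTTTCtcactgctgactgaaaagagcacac
Ifit3, chr19:34583348-34583441, plus strand: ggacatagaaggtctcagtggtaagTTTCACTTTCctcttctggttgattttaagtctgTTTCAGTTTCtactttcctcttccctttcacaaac
Isg15, chr4:156200850-156200921, minus strand: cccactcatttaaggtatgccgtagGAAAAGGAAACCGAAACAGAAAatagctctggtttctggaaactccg
Rsad2, chr12:26456538-26456597, minus strand: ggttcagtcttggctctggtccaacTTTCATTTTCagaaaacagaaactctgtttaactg

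The matches lie upstream of the start site, at positions -104 to -76 relative to it in Ifit1 (2 matches), -156 to -113 in Ifit3 (2), -78 to -57 in Isg15 (3) and -120 to -111 in Rsad2 (1). Of the interferon list, 20 genes had a promoter window and 12 held the letters (60.0%). Over all genes the share was 3.99% (1079 of 27025), and over genes compared in members 4.10%. Genes counted as higher outside that list held it in 25 of 176 windows (14.2%), and genes counted as lower in 8 of 216 (3.70%). Of the 5 marker genes with a window, 0 held it. A match is a run of letters and does not show that a factor was bound in these cells.

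**Figure D3:**
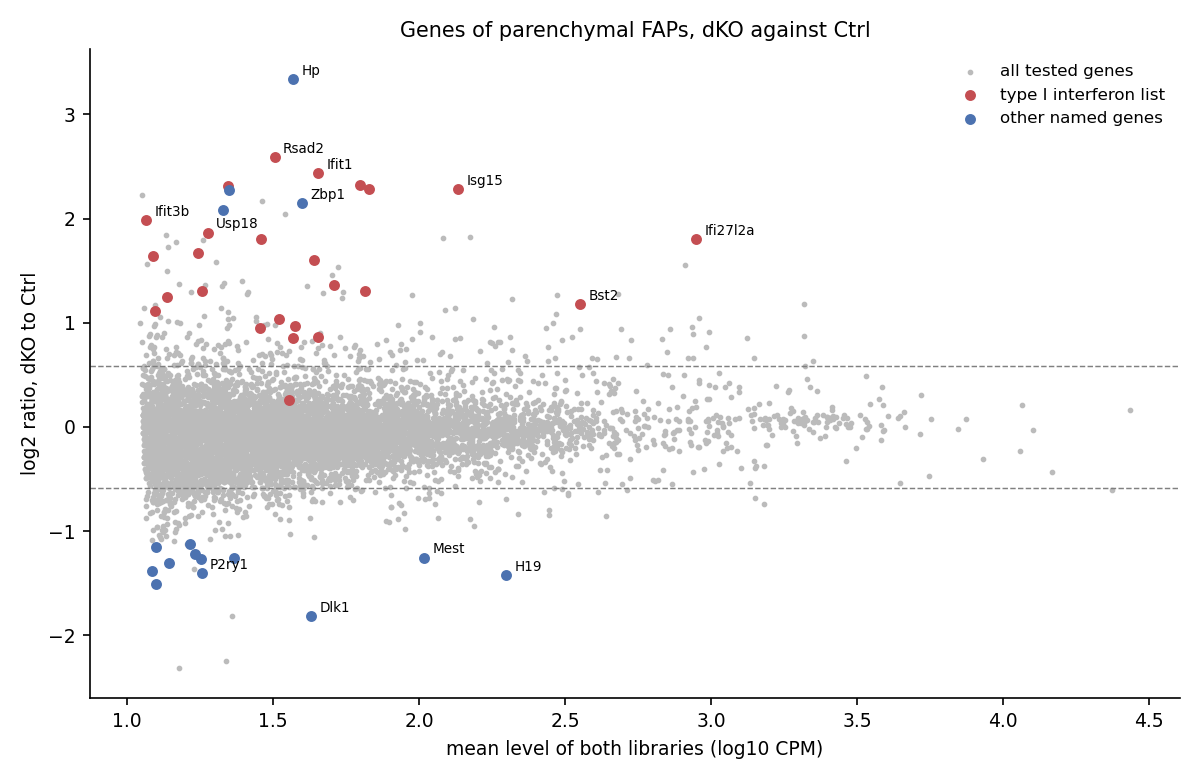
Log2 ratio of dKO to Ctrl in members against the mean level of both libraries (log10 CPM) for 7370 genes, with the type I interferon list in red, other named genes in blue and dashed lines at 1.5-fold. The interferon genes lie above the upper line except Ddx58, with Ifi27l2a the most abundant, and Dlk1 and H19 lie far below.

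The interferon difference was spread over many cells. Each member with 2000 or more UMIs was thinned to 2000 UMIs, which kept 330 Ctrl and 375 dKO cells. The median cell then held 1 UMI of the interferon list in Ctrl and 4 in dKO. At least 3 different genes of the list were found in 18.2% of Ctrl and 50.1% of dKO members. The tenth of cells richest in interferon UMIs accounted for 36.8% of these UMIs in the Ctrl library and for 34.2% in the dKO library. Single cells weighed more on single genes, as 1 dKO member held 30.4% of the Ifit1 UMIs and 1 Ctrl member 35.1% of those of Rsad2. Without the highest cell in each library the ratios were 4.13 for Ifit1 and 7.04 for Rsad2. Over the alternatives the ratio of Isg15 ran from 3.08 to 8.95, that of Ifit1 from 3.31 to 7.62 and that of Rsad2 from 4 to 7.13.

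The 4 kinds of member shared the difference. The interferon sum was 2.71 times as high in dKO among cells with Inmt alone, 3.19 times among those with Gdf10 or C7 alone, 2.84 times among those with both and 3.19 times among those with neither. Other gate cells showed it too, at 2.51-fold (2.45 to 2.57), with 1.86-fold in Pi16+ Dpp4+ cells, 2.88-fold in Cxcl5+ cells and 2.71-fold in gated cells with 0 or 1 of the 5 genes. Members exceeded the other gate cells by 0.29 on the log2 scale (0.23 to 0.35). That margin turned to -0.15 (-0.26 to -0.03) when the rule was applied to cells thinned to 2000 UMIs, which left 106 Ctrl and 86 dKO members. Cells with Ptprc, the blood cell marker CD45, held the list at 2519 and 5797 CPM. Their macrophage genes reached members at 0.532% of the blood cell level in Ctrl and 0.383% in dKO, and the same percentages of the blood cell interferon sum are 13.4 and 22.2 CPM. These figures take the percentage of 1 list for another, and the part of blood cell RNA in the interferon difference was not tested.

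**Figure D4:**
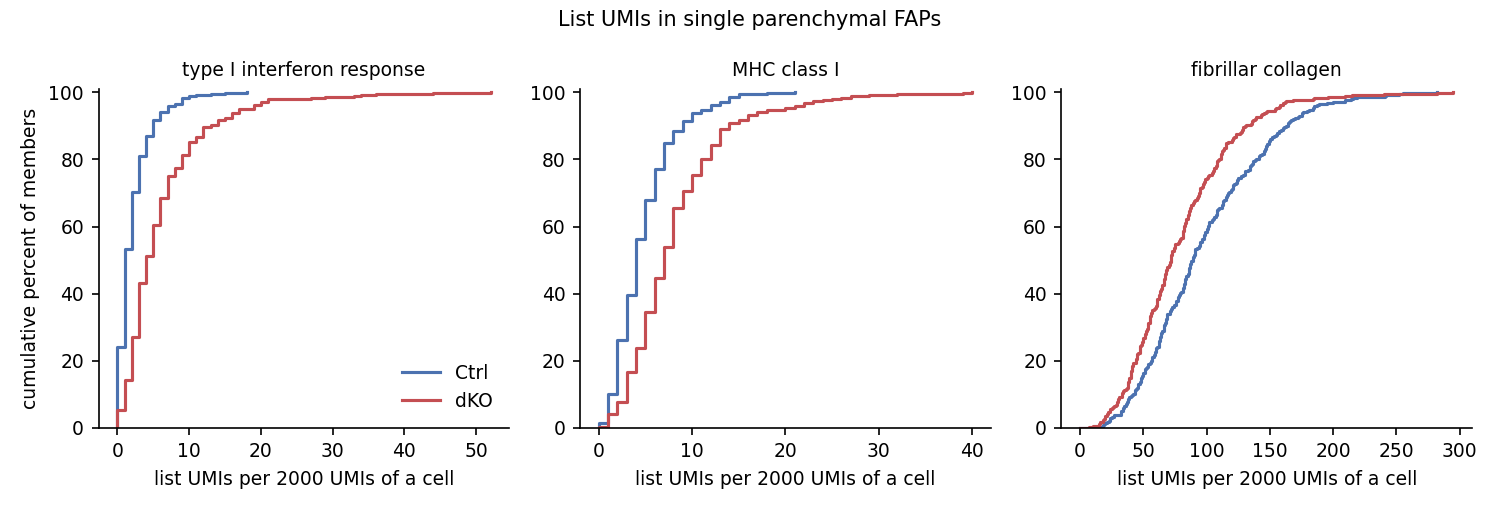
Cumulative percent of members by the UMIs of a gene list in a cell thinned to 2000 UMIs, for 330 Ctrl (blue) and 375 dKO (red) cells. The interferon and MHC class I curves of dKO lie to the right of Ctrl, with interferon medians of 4 and 1 UMIs, and the fibrillar collagen curve of dKO lies to the left, with medians of 72 and 89 UMIs.

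Genes more typical of interferon gamma were also higher, 8 of 10 with a median log2 ratio of 1.03. They included the guanylate-binding proteins Gbp5, Gbp6, Gbp7 and Gbp3 and the immunity-related GTPases Irgm1, Irgm2, Igtp and Ifi47, which act on intracellular pathogens. Their transcription factor Irf1 was at 184 and 225 CPM and Gbp2 at 57.3 and 64.2 CPM, both under the fold. The sum of the list was 1.53 times as high (1.44 to 1.63), a log2 ratio of 0.62. It fell short of the fold with at least 3 marker genes (log2 ratio 0.57), with the mean of each cell's CPM (0.48) and in members without blood cell UMIs (0.37). When the marker genes alone chose the gated cells, with none set aside, the list was also short of the fold. Its log2 ratio was then 0.46, a ratio of 1.38 (1.31 to 1.45). By kind of member the ratio ran from 1.08 in members with both Inmt and Gdf10 or C7 to 1.99 in those with neither.

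Antigen presentation by MHC class I moved with it, with 8 of 12 genes higher, 0 lower and a median log2 ratio of 0.84. B2m, the light chain of every class I molecule, went from 685 to 1288 CPM. The heavy chains H2-K1 and H2-D1 went from 496 to 953 and from 606 to 1124 CPM. Tap1, a subunit of the peptide pump, went from 21.5 to 44.0 CPM and the immunoproteasome subunit Psmb8 from 52.6 to 91.4 CPM, while Psmb10 (55.6 and 57.9 CPM) and the loading factor Tapbp (181 and 187 CPM) did not reach the fold. H2-Q6 was at 7.65 and 37.1 CPM, but it is one of several near-identical Qa genes and its reads may be shared. The summed list was 1.80 times as high in members (1.76 to 1.85) and 1.67 times in other gate cells.

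Complement genes were higher in 4 of 10 cases, with a median log2 ratio of 0.46. C3, the central component, went from 950 to 1713 CPM, C4b from 124 to 291 CPM, Cfb of the alternative pathway from 244 to 468 CPM, and C2 from 62.0 to 100 CPM. The inhibitors Cd55 and Serping1 did not reach the fold, as Cd55 stood at 79.3 and 55.8 CPM and Serping1 at 2023 and 2572 CPM. C7 belongs to the rule and was at 50.1 and 72 CPM.

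Chemokines were higher in 5 of 13 cases and lower in 0, with a median log2 ratio of 0.46. Cxcl9 and Cxcl10, ligands of the T cell receptor CXCR3, went from 55.6 to 134 CPM and from 236 to 430 CPM. Cxcl1, which draws neutrophils, went from 1757 to 2730 CPM, and Ccl19, a ligand of CCR7, from 23.2 to 59.2 CPM. Cxcl13, which draws B cells, was at 13.6 and 56.0 CPM, but 1 cell held 83.5% of its dKO UMIs and 1 cell 58.2% of its Ctrl UMIs. Without those cells its ratio was 1.64 (0.966 to 2.84). One dKO cell likewise held 49.1% of the Cxcl9 UMIs, and the ratio without the highest cells was 1.72 (1.42 to 2.09). The monocyte attractants Ccl2 (833 and 867 CPM) and Ccl7 (973 and 1269 CPM) did not reach the fold in members.

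Among genes that mark activated FAPs, 4 of 8 were higher in members, which hold no cell with 3 or more Cxcl5 UMIs. Ptx3, a soluble pattern-recognition protein, went from 414 to 1212 CPM, 2.93-fold (2.77 to 3.10), Tnfaip6, which cross-links hyaluronan, from 585 to 1134 CPM, and the cytokine Il6 from 129 to 226 CPM. Their margins over other gate cells, which pool several kinds of cell, were 0.51, 0.16 and 0.53 on the log2 scale. The summed activated list had a ratio of 1.56 in members and 1.80 in gated cells with 0 or 1 of the 5 genes. In Pi16+ Dpp4+ cells the ratio was 1.38, and in Cxcl5+ cells 1.03. Hp, the haemoglobin-binding acute phase protein haptoglobin, had the largest ratio of all named genes, at 6.67 and 67.6 CPM or 10.1-fold (6.84 to 15.6), from 27 and 321 UMIs. It was seen in 4.78% of Ctrl and 14.2% of dKO members, and without the highest cell in each library the ratio was 10.4. It was 6.65 with the rule on thinned cells and 40.9 in members without blood cell UMIs. Other gate cells had more Hp in dKO too, at 9.43 and 60.4 CPM, and the interval of its margin of 0.66 (-0.011 to 1.34) held 0. The acute phase list had 2 of 8 genes higher, Hp and Il1r1, the receptor of interleukin 1, which went from 122 to 202 CPM. Slfn2 and Zbp1 were also named by size, at 8.15 and 34.5 CPM and at 14.6 and 64.7 CPM. Over the alternatives their ratios ran from 1.72 to 6.26 for Slfn2 (4.24 as counted here) and from 2.72 to 9.78 for Zbp1 (4.44). Slfn2 is strong in blood cells, with a UMI in 48.5% of thinned Ctrl and 62.1% of thinned dKO Ptprc+ cells, beside 0.606% and 6.93% of members.

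**Figure D5:**
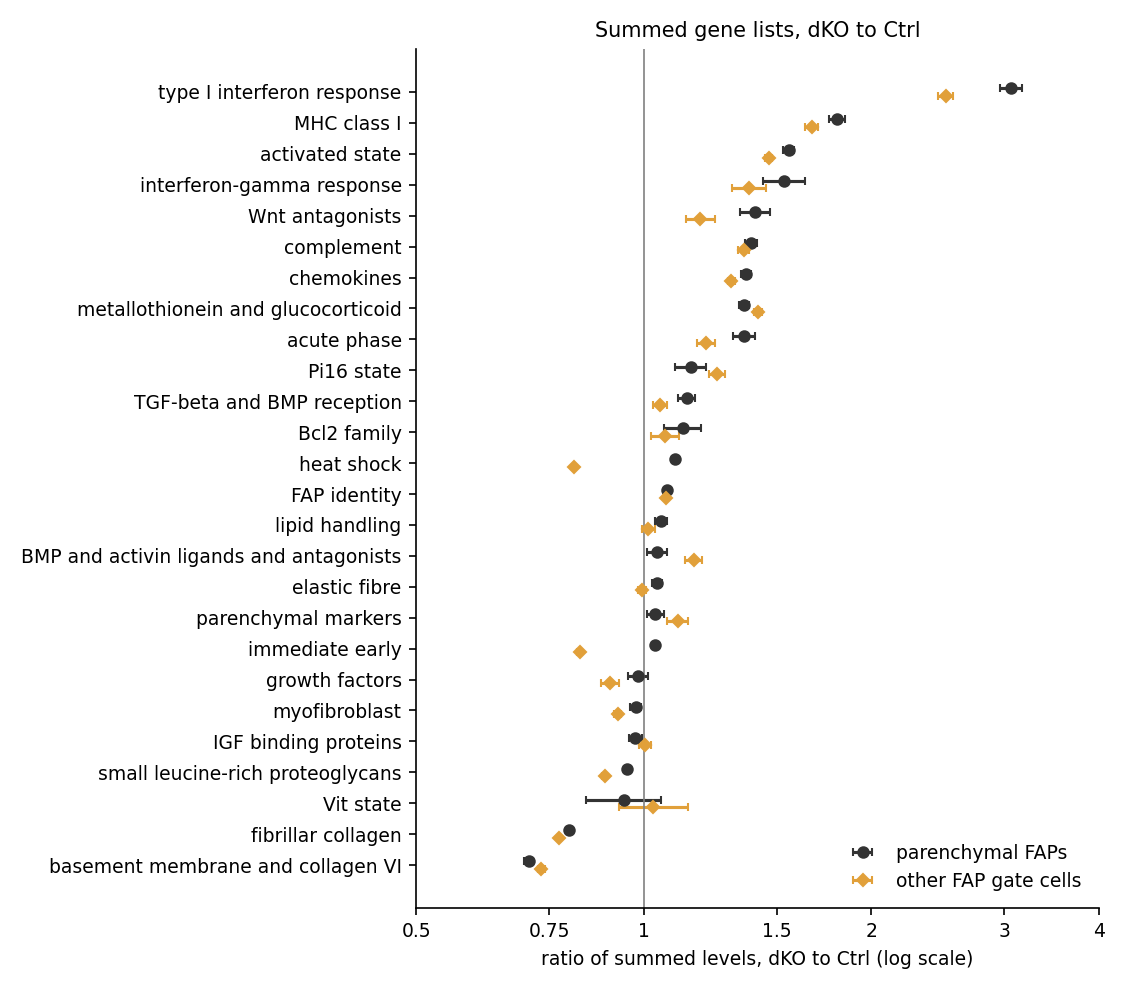
Ratio of dKO to Ctrl for the summed UMIs of 26 gene lists (log scale, 95% counting intervals) in members (black circles) and in other gate cells (orange diamonds). The type I interferon list stands apart at 3.06 and 2.51, and the basement membrane list is lowest at 0.705 and 0.732.

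Secreted regulators of the BMP, activin and Wnt pathways moved unevenly, with 2 of 10 ligands and antagonists of BMP and activin higher and 1 lower. Inhba, the subunit of activin A, was at 65.7 and 232 CPM, 3.54-fold (3.09 to 4.06), with 32.5% of its dKO UMIs in 1 cell and a ratio of 2.73 without the highest cells. Fst, the activin antagonist follistatin, went from 188 to 400 CPM, 2.13-fold (1.95 to 2.32). The protease Htra3 was lower, from 624 to 411 CPM, and the ligand Bmp4 was at 61.5 and 41.7 CPM, short of the fold. Gdf10 stood at 70.9 and 91.4 CPM. Of 15 genes of TGF-beta and BMP reception, 0 were higher and 0 lower, among them Tgfbr2 at 233 and 223 CPM and the BMP target Id3 at 850 and 1124 CPM. Of 5 Wnt antagonists 2 were higher, Sfrp1 at 363 and 581 CPM and Sfrp2 at 95.3 and 171 CPM. The summed Sfrp2 UMIs of members were 1.79-fold higher (1.58 to 2.03), while other gate cells had 133 and 134 CPM, a margin of 0.82 (0.61 to 1.04) on the log2 scale. Shares of cells with a Sfrp2 UMI at 2000 UMIs per cell did not follow that contrast. They were 8.48% and 10.7% in members, a difference of 2.18 points (-2.26 to 6.54), and 11.4% and 17.1% in other gate cells. For Sfrp1 the margin was -0.01 (-0.16 to 0.14), and its log2 ratio fell short of the fold with at least 3 marker genes (0.52) and with the rule on thinned cells (0.48).

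Of 11 growth factor genes 2 were higher and 1, Igf2, was lower. Hgf, the ligand of MET that primes muscle stem cells, was at 11.9 and 30.3 CPM, 2.56-fold (1.83 to 3.63) from 48 and 144 UMIs, while other gate cells held it at 24.0 CPM in both libraries. The margin was 1.36 (0.80 to 1.91) on the log2 scale, and without the highest cells the ratio in members was 2.48. Vegfd, a lymphatic growth factor, went from 21.7 to 39.0 CPM. Igf1, which feeds muscle growth, stood at 886 and 882 CPM in members and at 563 and 451 CPM in other gate cells. At 2000 UMIs per cell it was found in 75.2% of Ctrl and 63.2% of dKO members, a difference of -12.0 points (-18.6 to -5.12). Of 5 of its binding proteins 1 was higher, Igfbp3, which went from 78.5 to 143 CPM, 1.82-fold (1.59 to 2.09).

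Among the 12 lowest ratios were those of Dlk1, H19 and Mest. H19 lies at chr7:142575529-142578143 and Dlk1 at chr12:109452823-109463336 (GRCm38). Dlk1, a membrane protein that restrains adipocyte differentiation, was at 66.7 and 19 CPM, with 29.6% of the Ctrl UMIs in 1 cell and a ratio of 0.318 (0.239 to 0.420) without the highest cells. H19, a noncoding RNA, was at 290 and 108 CPM and Mest at 147 and 61.5 CPM. Igf2, the neighbour of H19 and outside those 12, was at 36.1 and 7.58 CPM, with 43.2% of the Ctrl UMIs in 1 cell. Other gate cells had lower dKO levels of these 4 genes as well, for instance H19 at 385 and 188 CPM and Mest at 144 and 37.9 CPM. Also named by size were P2ry1, a purine receptor, at 26.2 and 9.90 CPM, Entpd1, the ectonucleotidase CD39, at 18.5 and 6.53 CPM, Gucy1a2, a subunit of the nitric oxide receptor, at 32.8 and 13.7 CPM, and Avpr1a, the vasopressin receptor, at 24.0 and 10.3 CPM. Pthlh, Hist1h1e, Xxylt1 and Clec14a had log2 ratios from -1.30 to -1.12. Over the alternatives the ratio ran from 0.134 to 0.373 for Dlk1, 0.232 to 0.438 for H19, 0.351 to 0.646 for Mest, 0.183 to 0.435 for P2ry1, 0.257 to 0.590 for Avpr1a and 0.123 to 0.537 for Clec14a. Short of the fold were Xxylt1 in members without blood cell UMIs, at a ratio of 0.907, and Entpd1 with the rule on thinned cells, at 0.739. Spp1, or osteopontin, a gene that macrophages also express, was at 17.5 and 6.74 CPM in members and at 67.4 and 59.6 CPM in other gate cells. With at least 1 of the 5 marker genes its ratio was 0.988.

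Matrix genes did not move as one. Of 16 genes of the basement membrane and collagen VI, 7 were lower and 0 higher, with a median log2 ratio of -0.54 against -0.07 over all genes. Their sum fell from 11236 to 7920 CPM, a ratio of 0.705 (0.695 to 0.715). Lama2, the laminin chain that anchors muscle fibres, went from 360 to 200 CPM, Lamb1 from 280 to 157 CPM and Col15a1 from 564 to 311 CPM. Col6a3, of the collagen VI microfibril, went from 1739 to 1082 CPM, and the heparan sulphate proteoglycan Hspg2 from 497 to 322 CPM. Col4a1 (1610 and 1227 CPM) and Nid1 (1074 and 814 CPM) stayed short of the fold. Other gate cells had a ratio of 0.732 for the list.

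Fibrillar collagen genes and their enzymes were lower in 1 of 15 cases, the lysyl hydroxylase Plod1, with a median log2 ratio of -0.33. The most abundant transcripts were below 1 without reaching the fold. Col1a1 stood at 6492 and 4674 CPM and Col3a1 at 16850 and 12470 CPM, ratios of 0.720 and 0.740, and the summed list had a ratio of 0.796 (0.791 to 0.801). The elastic fibre genes had 1 of 19 higher, Ltbp2, whose ratio of 1.51 became 1.32 without the highest cells, with Eln, Fbn1 and Fbln2 between 1.00 and 1.08. Of 9 small leucine-rich proteoglycans 0 reached the fold. Fmod stood at 39.5 and 48.4 CPM in members and at 33.3 and 17.0 CPM in other gate cells.

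Of 10 myofibroblast genes 2 were higher and 2 lower. Timp1 was among the higher, from 592 to 1225 CPM. Postn, the matrix protein periostin, went from 1902 to 1139 CPM and Acta2, smooth muscle actin, from 19.8 to 9.27 CPM. Acta2 was at 60.6 and 66.8 CPM in other gate cells. The 10 genes of FAP identity included 1 that was higher, Ly6a, the surface antigen Sca-1, from 1467 to 2691 CPM.

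Of 12 lipid handling genes 2 passed the fold, both lower and both transporters of the ABCA family, with a median log2 ratio of -0.10. Abca8a, in the rule, was at 588 and 402 CPM, short of the fold, and its relatives Abca9 (151 and 82.4 CPM) and Abca6 (46.7 and 25.1 CPM) passed it. The apolipoproteins Apod (1893 and 2475 CPM) and Apoe (267 and 366 CPM) lay above 1 and short of it. Of the metallothionein and glucocorticoid genes 2 of 9 were higher, Mt2 at 1088 and 1725 CPM and Zbtb16 at 66.9 and 134 CPM. Of 7 genes of the Bcl2 family 1 was lower, Bcl2 itself, which restrains apoptosis, from 27.4 to 15.8 CPM. The Vit and Pi16 lists hold genes that the rule used to set cells aside, so nothing is read from them. Of 5 sex-linked genes 2 had enough UMIs and 0 passed.

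Genes of dissociation and stress were abundant in both libraries. Immediate early genes made up 21519 and 22264 CPM and heat shock genes 29280 and 32202 CPM, and 0 of 19 and 0 of 10 reached the fold. Within the kinds of member the heat shock ratio was 0.930 in cells with Inmt alone, 1.33 with Gdf10 or C7 alone, 0.864 with both and 1.35 with neither. Markers of other cells were low. Macrophage genes summed to 115 CPM in Ctrl and 86.2 CPM in dKO, neutrophil genes to 26.9 and 5.48 CPM, and myofibre genes to 70.9 and 20.2 CPM. Endothelial genes were at 9.38 and 5.90 CPM and lymphocyte genes at 2.96 and 2.32 CPM. Smooth muscle and pericyte genes summed to 51.4 and 40 CPM, muscle stem cell genes to 2.96 and 4.63 CPM, Schwann cell genes to 2.22 and 2.53 CPM, adipocyte genes to 0.494 and 0 CPM and erythroid genes to 0.247 and 3.37 CPM. The tenocyte list reached 1696 and 1514 CPM, of which Thbs4, a gene that FAPs also express, was nearly the whole. Of 5 neutrophil genes 1 was at 0 in Ctrl and 0 in dKO, of 7 lymphocyte genes 3 and 4, of 6 muscle stem cell genes 4 and 2, and of 4 adipocyte genes 2 and 4. The part of RNA from other cells in the differences above was not tested. In the 71 Ctrl and 165 dKO members with no UMI of the macrophage, neutrophil and lymphocyte lists, the interferon log2 ratio was 1.77.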

How the data were processed

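Single-cell RNA-seq was made on the 10x Chromium platform from viability-sorted hind limb muscle cells, 1 library per genotype, each from 3 pooled mice. The authors deposited raw UMI counts per gene and cell as sparse matrices. The submitters' processing notes name Cell Ranger 7.0.0, Seurat 4.3.0 and the mm10 build, whereas the matrix header names version 3.0.2. Of the listed genes 0 are mitochondrially encoded, so no filter on them was possible, and free RNA was not subtracted, so a low level may hold RNA of other cells.

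Cells with 500 or more genes were kept, the gate and the rule were applied to raw counts, and UMIs were summed over members per library (Python 3.11.15, numpy 2.4.6, scipy 1.17.1, pandas 2.3.3). Ratios of sums carry exact conditional binomial 95% intervals, shares exact binomial ones, differences of shares Newcombe intervals, and margins a normal approximation on the log scale. Genes needed 100 UMIs over both libraries. The 12 highest and 12 lowest ratios among genes found in at least 10% of members of the library where they were higher were named, as were the 15 highest and 10 lowest against other gate cells (50 CPM and 20% of cells) and genes of 38 lists (2 of 412 list entries had no match and were not analysed here). Igf2, Cxcl13 and others outside the 24 were named from those lists. Thinning drew 2000 UMIs without replacement per cell. Scrublet (scanpy 1.11.5) called 8 and 17 cells at its own threshold. The study describes doublet removal before its final 4335 and 3329 cells, which are also the numbers with 500 or more genes here, so the deposited matrices may already lack doublets. No cell was removed as a doublet, and the highest 7.5% of scores were left out as an alternative. The comparisons without the 17 cells of several exclusions and with none set aside were chosen after seeing the data. Ratios were tested on simulated counts of dKO and Ctrl members over 7370 genes, where the genes changed 2.5-fold were all recovered. The simulated counts had counting error alone, without UMIs gathered in single cells, and 2.5-fold lies well past the 1.5-fold limit. The simulation thus checks the calculation and not the genes counted as higher or lower. Members and lists were chosen with earlier results of these data known. Symbols were matched to GENCODE M21 (97.9% found). Some genes of these lists are not reported here.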

Additional observations from a re-analysis of the deposited data

Results flagged for a closer look

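Gene lists were picked out where the ratio of dKO to Ctrl lay on opposite sides of 1 in members and in the other gate cells, with both counting intervals leaving out 1. There were 2 of 26. The heat shock list had a ratio of 1.10 in members and 0.808 in other gate cells, with 0.790 in Pi16+ Dpp4+ cells, 0.601 in Cxcl5+ cells, 0.991 in gated cells with 0 or 1 of the 5 genes, 1.23 in Vit+ cells and 0.495 in the 17 cells that met several exclusions. Without those 17 the other gate cells had 0.821. The immediate early list had 1.03 in members and 0.822 in other gate cells, or 0.845 without the 17. The side of 1 in members was not stable. With at least 3 marker genes the log2 ratio was -0.042 for heat shock and -0.014 for immediate early, and with the rule on thinned cells heat shock stood at -0.15. In gated cells with 2 or more of the 5 genes and none set aside the ratios were 0.997 and 0.941. With 1 library per genotype the difference between the groups of cells was not tested. Within members the immediate early ratio ran from 0.884 with Inmt alone to 1.28 with neither Inmt nor Gdf10 or C7.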

How the results depend on the processing

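Values are log2 ratios of dKO to Ctrl unless a count or percentage points are given. No paired analysis was possible because each genotype has 1 library. With at least 1 marker gene the member share differed by -8.43 points beside 2.11, Inmt stood at 0.12, the IGF binding list at 0.025 and the interferon list at 1.55 beside 1.61. With at least 3 marker genes, heat shock stood at -0.042, immediate early at -0.014, FAP identity at -0.034, the Pi16 list at -0.0046, BMP and activin at -0.15 and myofibroblast at 0.11. With the rule on thinned cells (106 and 86 members) 141 genes were higher and 99 lower, interferon was 1.45 and its margin over other gate cells -0.15, and heat shock stood at -0.15, BMP at -0.23, lipid handling at -0.10, myofibroblast at 0.12, Inmt at 0.075 and Gdf10 at -0.25. In members without blood cell UMIs, chosen after seeing the data, 235 genes were higher and 181 lower (56.5% of passing genes higher against 48.5%), interferon was 1.77, and the parenchymal markers stood at -0.15, FAP identity at -0.031, elastic fibre at -0.080, BMP at -0.025, C7 at -0.35, Eln at -0.24 and Gdf10 at -0.15. Median-ratio scaling, a shift of -0.07, put interferon at 1.68, IGF binding at 0.032 and myofibroblast at 0.033, and 63.5% of passing genes were then higher against 48.5%. With 20 UMIs as minimum 398 genes were higher and 544 lower, and with a 2-fold limit 76 and 31. Without its leading gene the interferon list was at 1.49, lipid handling at -0.16 and the Bcl2 family at -0.051. With at least 3 of 4 stem cell genes Yy1 stood at -3.16 beside -4.81. The cause of these shifts was not tested. Over all alternatives the interferon ratio ran from 2.73 to 3.41, MHC class I from 1.53 to 2.08, interferon gamma from 1.29 to 1.82, fibrillar collagen from 0.738 to 0.835 and basement membrane from 0.678 to 0.739. Of the values of named genes, 253 stayed within their counting interval, 61 moved beyond it and 6 turned from an interval that had left out 1, and for list sums these were 148, 120 and 19. Of those that moved, 2 gene values and 5 list sums also crossed 1, the genes being Penk alone, at -0.26 with at least 3 marker genes and -0.33 with the rule on thinned cells beside 0.08. A gene of few UMIs is limited by depth, and with 1 library per genotype no interval covers differences between mice.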
